A study of Homo sapiens with 60 samples.

Results

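CXCL8, CXCL1, CXCL2, CXCL3, CXCL5 and CXCL6 encode the CXC chemokines that attract neutrophils. These 6 genes were taken by symbol from the 60675 genes of a count table of 60 RNA-seq libraries made from SW1783, an established human astrocytoma cell line. CXCL8 had 44 to 1919 counts in every library. CXCL1, CXCL2, CXCL3 and CXCL5 lay near or below 1 CPM (counts-per-million) in most libraries, and CXCL6 never exceeded 6 counts. The 5 genes other than CXCL6 passed the filter on low counts and were tested among 17851 genes. At the high dose of 3 extracts, Yijin-tang, Soshiho-tang and Schisandrae Fructus, all 5 were higher than at the low dose of the same extract.

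All cells were treated for 24 h, either with an extract or with the vehicle, DMSO at 0.1% by the sample labels. Yijin-tang and Soshiho-tang, decoctions of several herbs extracted with water, were given at 500, 100 and 20 µg/mL, here called high, medium and low. The same doses applied to 3 ethanol extracts, those of Zizyphi Semen, Longan Arillus and Liriopis seu Ophiopogonis Tuber. Doses were 310, 62 and 12.4 µg/mL for Schisandrae Fructus, 160, 32 and 6.4 µg/mL for Aucklandiae Radix, and 30, 6 and 1.2 µg/mL for Polygalae Radix, again as ethanol extracts. Soshiho-tang had 2 libraries a dose, Aucklandiae Radix and Polygalae Radix had 1, and each other group had 3, vehicle included. An extract is a mixture, the model is 1 tumour cell line without neutrophils or other cells added, and the text deposited with the series states that samples lost to low RNA concentration were left out. The labels do not say that libraries of a group came from separate cultures, so a p-value here speaks only of library-to-library spread, which may be technical.

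Library totals ran from 18.73 M to 35.52 M counts. The first part of the library names divides the libraries into sets, and every extract lies within 1 set at all its doses, whereas the 3 vehicle libraries are a set of their own. An extract's doses are thus compared within 1 set, but for any comparison with the vehicle the library set and the treatment cannot be told apart. One library stood apart from its group, replicate 3 of medium Longan Arillus. The Pearson r of its log2 CPM was 0.980 with replicates 1 and 2, against 0.992 between those. No member was called in that group with or without this library. Of the astrocyte markers, GFAP had a median of 0.117 CPM over the 60 libraries and ALDH1L1, AQP4, S100B and SLC1A2 were also near 0, while SOX9 had a median of 74.5 CPM and VIM of 4824 CPM.

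CXC chemokines of this kind carry a glutamate-leucine-arginine motif ahead of their first cysteines and act on the receptors CXCR1 and CXCR2 of neutrophils. CXCL8, also called interleukin 8, binds both receptors well, as does CXCL6, whereas CXCL1, CXCL2 and CXCL3, the GRO chemokines, and CXCL5 act mainly through CXCR2. Resting cells transcribe the genes little. NF-kB, with AP-1 and C/EBP factors, switches them on after interleukin 1 or tumour necrosis factor, and AU-rich elements make the messages short-lived. Astrocytes and astrocytoma cells can secrete these proteins when stimulated.

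The 6 genes lie on chromosome 4 within 358.8 kb (GRCh38, GENCODE 29 annotation, positions 73740506 to 74099293). CXCL8, CXCL6 and CXCL1 are on the plus strand and CXCL5, CXCL3 and CXCL2 on the minus strand, with the platelet chemokine genes PF4V1, PF4 and PPBP between them. The stretches printed here run from 140 to 31 bases before each RefSeq start site (GRCh38.p14), 5′ to 3′ on the gene's own strand, and are shown because 5 of the 6 genes rose in the same high-dose comparisons. Capitals mark a kB-like form, GGAATTTCC, and in CXCL8 an AP-1 form, TGANTCA. Promoters were searched on both strands, and the matches do not overlap. Coordinates are chr4:73740429-73740538 (plus) for CXCL8, chr4:73869253-73869362 (plus) for CXCL1, chr4:74099226-74099335 (minus) for CXCL2, chr4:74038720-74038829 (minus) for CXCL3, chr4:73998708-73998817 (minus) for CXCL5 and chr4:73836538-73836647 (plus) for CXCL6.
CXCL8: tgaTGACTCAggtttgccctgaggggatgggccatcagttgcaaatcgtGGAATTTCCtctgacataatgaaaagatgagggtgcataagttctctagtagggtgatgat
CXCL1: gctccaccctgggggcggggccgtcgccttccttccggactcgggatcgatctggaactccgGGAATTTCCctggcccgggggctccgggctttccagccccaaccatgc
CXCL2: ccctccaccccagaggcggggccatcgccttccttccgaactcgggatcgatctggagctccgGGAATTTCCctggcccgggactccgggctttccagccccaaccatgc
CXCL3: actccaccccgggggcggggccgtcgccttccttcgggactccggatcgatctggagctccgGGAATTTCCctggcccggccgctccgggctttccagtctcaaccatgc
CXCL5: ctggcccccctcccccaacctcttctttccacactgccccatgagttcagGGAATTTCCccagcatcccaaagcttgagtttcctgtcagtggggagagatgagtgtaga
CXCL6: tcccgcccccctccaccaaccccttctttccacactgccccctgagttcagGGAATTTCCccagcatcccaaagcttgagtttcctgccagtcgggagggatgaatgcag
The kB-like form lay on the gene's strand in all 6 windows, starting 91 bases before the start of CXCL8, 78 before CXCL1, 77 before CXCL2, 78 before CXCL3, 90 before CXCL5 and 89 before CXCL6. Of 35116 RefSeq promoters of 300 bases, 162 (0.461%) held it on either strand. The form was chosen after these promoters had been read, so its presence in all 6 is a description. The AP-1 form was found in CXCL8 alone of the 6, 137 to 131 bases before the start, and in 7.71% of all promoters. CXCL6, which stayed near 0 counts, has the same kB-like letters as the other 5. The 300-base promoters of CXCL1 and CXCL3 were 84.7% identical and those of CXCL5 and CXCL6 83.7%, while CXCL8 was 48.0% to 50.3% identical to the others. The transcripts of CXCL1 and CXCL2 were 80.8% identical, so reads may be shared among the GRO genes and their counts are also given as a sum.

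**Figure D1:**
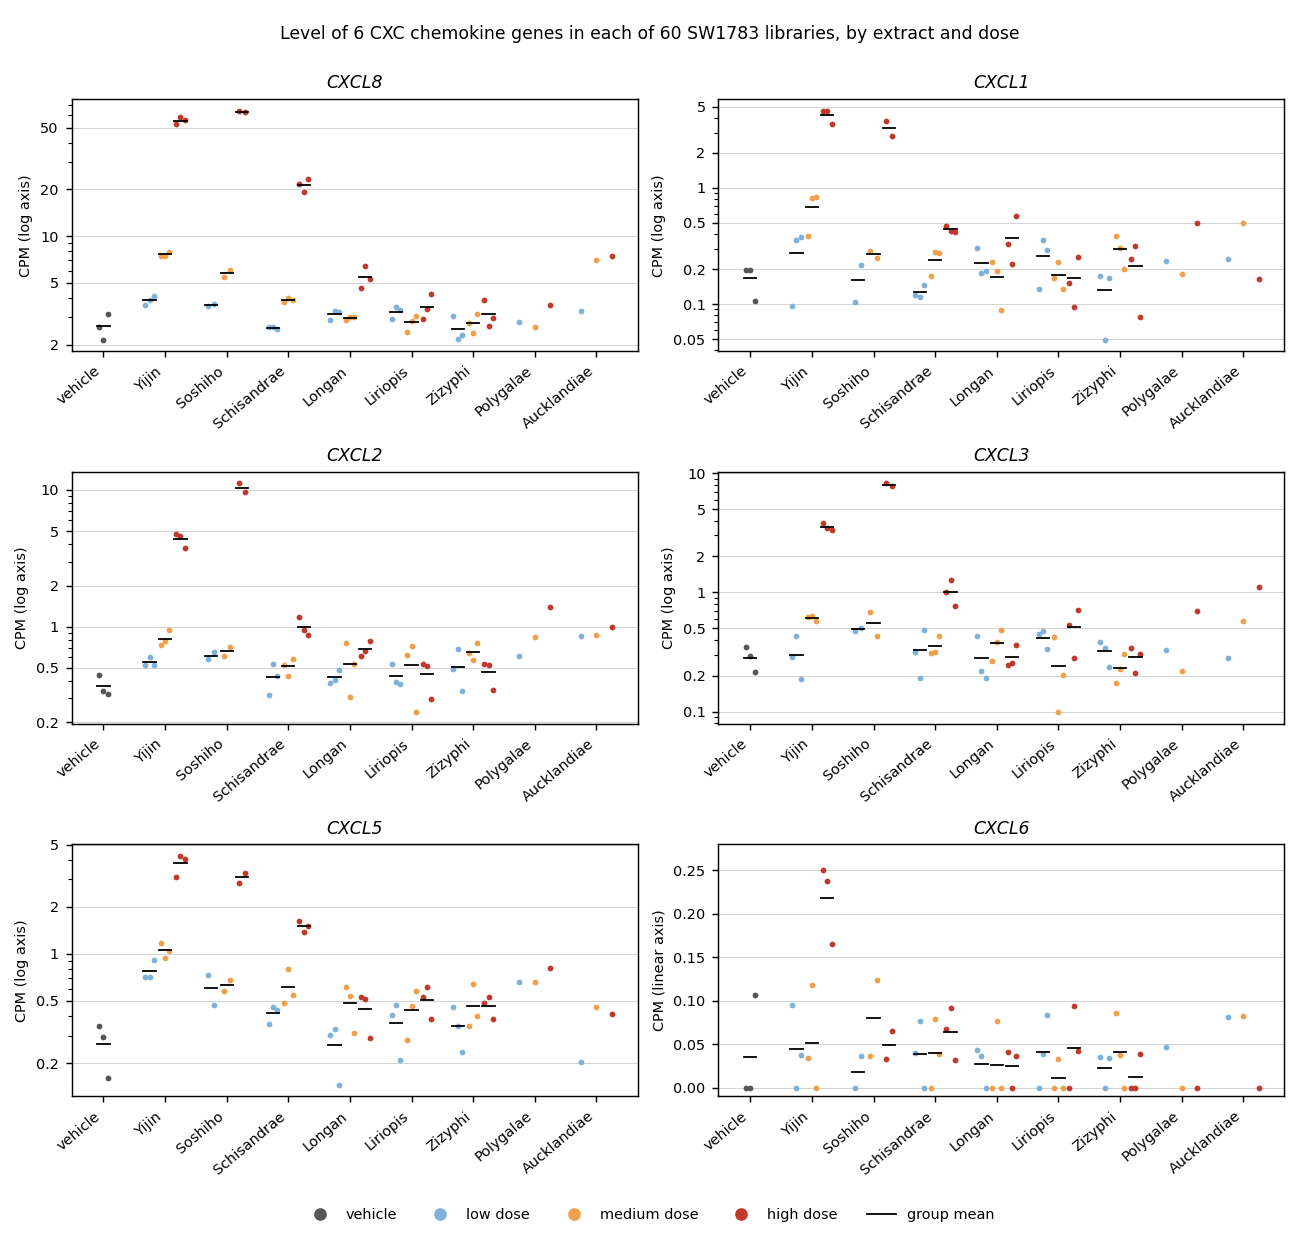
CPM of each chemokine (vertical axis, log scale except for CXCL6, which is linear) by extract along the horizontal axis, with 1 point per library coloured by dose and a line at the mean of each group of more than 1 library. For CXCL8 the 8 libraries of high Yijin-tang, Soshiho-tang and Schisandrae Fructus lie between 19.3 and 64.4 CPM and the other 52 between 2.15 and 7.97, and CXCL6 stays at or below 0.250 CPM.

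CXCL8 was the most abundant of the 6 in every group when compared per kilobase of exon. In the vehicle libraries its mean was 1.16 CPM per kb, against 0.246 for CXCL2, 0.129 for CXCL1, 0.128 for CXCL3, 0.105 for CXCL5 and 0.0163 for CXCL6. At high Yijin-tang the order was CXCL8 at 24.5 CPM per kb, CXCL1 at 3.28, CXCL2 at 2.94, CXCL3 at 1.60 and CXCL5 at 1.50. At high Soshiho-tang CXCL8 was at 28 CPM per kb and CXCL2 came next at 6.93, ahead of CXCL3 at 3.61, CXCL1 at 2.55 and CXCL5 at 1.22. In bulk RNA, a change in the number of expressing cells and a change in RNA per cell cannot be told apart.

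CXCL8 was at 2.62, 2.15 and 3.15 CPM in the vehicle libraries. Low Yijin-tang gave 3.58, 3.89 and 4.12 CPM, medium gave 7.44, 7.48 and 7.97, and high gave 52.5, 58.5 and 55.9. The 3 doses did not overlap, and the high libraries stood far above the medium ones. High against low was a log2 difference of 3.82 ± 0.10 (SE; edgeR adjusted p = 3.31e-29). Low Soshiho-tang libraries had 3.57 and 3.68 CPM, medium 5.48 and 6.09, and high 64.4 and 62.8. Again no doses overlapped, and the log2 difference of high against low was 4.13 ± 0.13 (adjusted p = 5.06e-27). Low Schisandrae Fructus gave 2.62, 2.61 and 2.51 CPM, medium 3.80, 3.98 and 3.90, and high 21.7, 19.3 and 23.2. These doses were also separate, with 3.06 ± 0.12 on the log2 scale between high and low (adjusted p = 2.36e-24). CXCL8 under high Schisandrae Fructus stayed below all libraries of both high decoctions.

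The other extracts moved CXCL8 less or not past the threshold. Longan Arillus had 2.90, 3.29 and 3.23 CPM at the low dose, 2.90, 3.00 and 3.02 at the medium dose and 4.64, 6.43 and 5.29 at the high dose. The high libraries were above those of both other doses, by 0.78 ± 0.13 on the log2 scale against the low dose (edgeR adjusted p = 0.000452), while medium and low overlapped. This call was lost when only the libraries compared or only the matching library sets were fitted (adjusted p = 0.102 and 0.0876 for CXCL8). Mean CPM in Liriopis seu Ophiopogonis Tuber was 3.25 ± 0.298 (SD, n = 3) at the low, 2.79 ± 0.334 at the medium and 3.52 ± 0.655 at the high dose. Zizyphi Semen had 2.52 ± 0.480, 2.78 ± 0.389 and 3.16 ± 0.624 CPM (SD, n = 3), and its high dose differed from its low dose by 0.35 ± 0.15 in log2 (adjusted p = 0.194). In the order of the 25 groups by mean CXCL8, high Soshiho-tang, high Yijin-tang and high Schisandrae Fructus came first, with no overlap. Medium Yijin-tang, high and medium Aucklandiae Radix, and then medium Soshiho-tang and high Longan Arillus came next, and the last of these pairs overlapped. Medium Schisandrae Fructus followed at 3.89 ± 0.0924 CPM, and from there on neighbouring groups overlapped, apart from medium Longan Arillus against the group ranked after it.

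CXCL1, CXCL2 and CXCL3, the GRO chemokines, rose with the same 3 high doses from a much lower start. CXCL1 had 0.198, 0.195 and 0.107 CPM in the vehicle libraries, which is 4, 4 and 2 counts. It had 0.0955, 0.356 and 0.378 CPM at low Yijin-tang, 0.382, 0.827 and 0.833 at medium and 4.63, 4.56 and 3.57 at high. High Yijin-tang stood clear of both other doses, while the lowest medium library was at the level of the highest low library. The log2 difference of high against low was 3.83 ± 0.30 (edgeR adjusted p = 6.06e-13), against 3.82 for CXCL8. At Soshiho-tang CXCL1 was at 0.105 and 0.217 CPM at the low dose and 3.79 and 2.83 at the high dose, 4.24 ± 0.42 apart in log2 (adjusted p = 7.71e-11). Schisandrae Fructus brought it from 0.126 ± 0.0162 CPM (SD, n = 3; 3 counts in each low library) to 0.472, 0.430 and 0.416 CPM (14, 14 and 13 counts). This was a log2 difference of 1.79 ± 0.47 (adjusted p = 0.00147) with no overlap, but it rests on few counts.

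CXCL2 had 0.445, 0.342 and 0.320 CPM in the vehicle libraries and 0.525, 0.606 and 0.530 at low Yijin-tang. High Yijin-tang libraries had 4.79, 4.64 and 3.80 CPM, a log2 difference of 2.95 ± 0.22 from the low dose (edgeR adjusted p = 8.6e-14). Soshiho-tang moved CXCL2 further, from 0.578 and 0.650 CPM at the low dose to 11.2 and 9.60 at the high dose, 4.06 ± 0.26 in log2 (adjusted p = 1.18e-16). Both high Soshiho-tang libraries lay above all 3 high Yijin-tang libraries. High Schisandrae Fructus had 1.18, 0.952 and 0.864 CPM against 0.430 ± 0.11 (SD, n = 3) at the low dose, 1.22 ± 0.27 in log2 (adjusted p = 0.000224). These libraries were above their own low and medium doses, but not above every library elsewhere, since high Polygalae Radix was at 1.39 CPM.

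CXCL3 followed CXCL2 in which group was highest. It was at 0.346, 0.293 and 0.214 CPM in the vehicle libraries, 0.301 ± 0.120 (SD, n = 3) at low Yijin-tang and 3.83, 3.45 and 3.34 at high Yijin-tang. The high libraries were clear of the low ones by 3.50 ± 0.28 in log2 (edgeR adjusted p = 6.97e-13). At Soshiho-tang it was at 0.473 and 0.505 CPM at the low dose and 8.22 and 7.79 at the high dose, 4.01 ± 0.31 in log2 (adjusted p = 4.87e-14). High Schisandrae Fructus had 1.01, 1.26 and 0.768 CPM against 0.331 ± 0.146 at the low dose, 1.66 ± 0.31 in log2 (adjusted p = 2.6e-05). Outside these 3 high doses the highest CXCL3 library was high Aucklandiae Radix at 1.11 CPM.

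**Figure D2:**
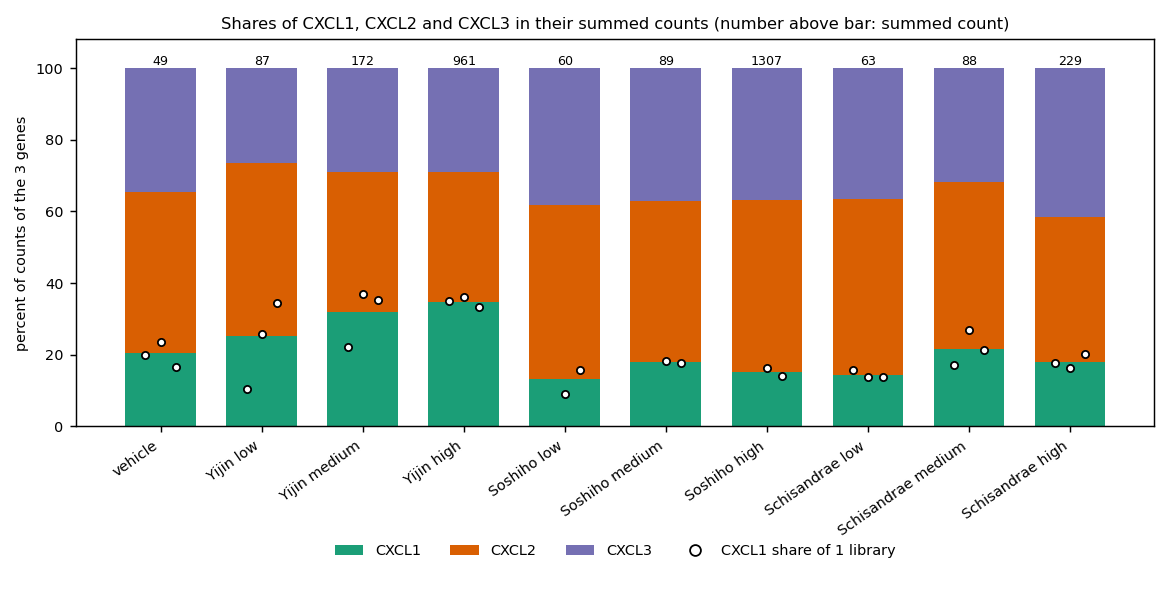
Share of CXCL1, CXCL2 and CXCL3 in their summed counts (vertical axis, percent) in the vehicle and at each dose of Yijin-tang, Soshiho-tang and Schisandrae Fructus, as stacked bars over the libraries of a group, with the summed count above each bar and an open point for the CXCL1 share of each library. The CXCL1 points lie at 33.3% to 36.1% in high Yijin-tang and at 14% to 16.3% in high Soshiho-tang.

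The make-up of the GRO counts differed between the decoctions. CXCL1 was 34.8% ± 1.36 (SD, n = 3) of the summed GRO counts at high Yijin-tang, 15.2% ± 1.66 (n = 2) at high Soshiho-tang and 18.1% ± 2.04 (n = 3) at high Schisandrae Fructus. The Yijin-tang libraries, at 33.3% to 36.1%, did not overlap the 14% to 16.3% of Soshiho-tang or the 16.3% to 20.3% of Schisandrae Fructus. The exact permutation test, two-sided, gave p = 0.2 for the first pair and p = 0.1 for the other, each the smallest that these group sizes allow, and the share was examined after its values had been seen. Expected counts for CXCL2 and CXCL3 were not whole numbers in 3 of 60 libraries each, while their sum was whole in all 60, so a few reads had been divided between this pair. As a sum, the GRO genes rose from low to high dose by 3.38 ± 0.17 in log2 with Yijin-tang, 4.08 ± 0.20 with Soshiho-tang and 1.49 ± 0.20 with Schisandrae Fructus. The sum was higher at high Soshiho-tang than at high Yijin-tang by 0.85 ± 0.14 (edgeR adjusted p = 6.44e-06).

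CXCL5, first known as a product of activated epithelial cells, had smaller log2 differences than CXCL8 with both decoctions, a difference between genes that was not tested. It was at 0.346, 0.293 and 0.160 CPM in the vehicle libraries and at 0.716, 0.713 and 0.908 at low Yijin-tang, which do not overlap. High Yijin-tang had 3.08, 4.25 and 4.06 CPM, all above the 0.945 to 1.18 CPM of the medium dose, and 2.25 ± 0.22 above the low dose in log2 (edgeR adjusted p = 3.31e-10). Soshiho-tang had 0.736 and 0.469 CPM at the low dose and 2.85 and 3.32 at the high dose, 2.39 ± 0.29 in log2 (adjusted p = 1.77e-08). Schisandrae Fructus had 0.357, 0.460 and 0.435 CPM at the low dose and 1.62, 1.38 and 1.50 at the high dose, 1.85 ± 0.27 in log2 (adjusted p = 1.96e-07). Like CXCL8, CXCL5 in these 8 high-dose libraries lay above all 52 others, whose highest value was 1.18 CPM.

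CXCL6 was not expressed at a level these libraries could measure. Its counts ran from 0 to 6 with a median of 1, it was at 0 in 22 of 60 libraries, and it did not pass the filter. A count of 0 allows up to 3 counts, or 0.0845 to 0.159 CPM depending on the library's total, for counting error only. High Yijin-tang held the most, with 6, 6 and 5 counts, against 2, 0 and 1 at its low dose and 0, 0 and 2 in the vehicle. The ratio of the summed rates was 5.38 (exact 95% interval 1.56 to 28.6, counting error only). Fitted without the filter, CXCL6 differed by 2.27 ± 0.95 in log2 between high and low Yijin-tang (edgeR adjusted p = 0.287), which is not past the threshold. High Soshiho-tang had 1 and 2 counts.

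**Figure D3:**
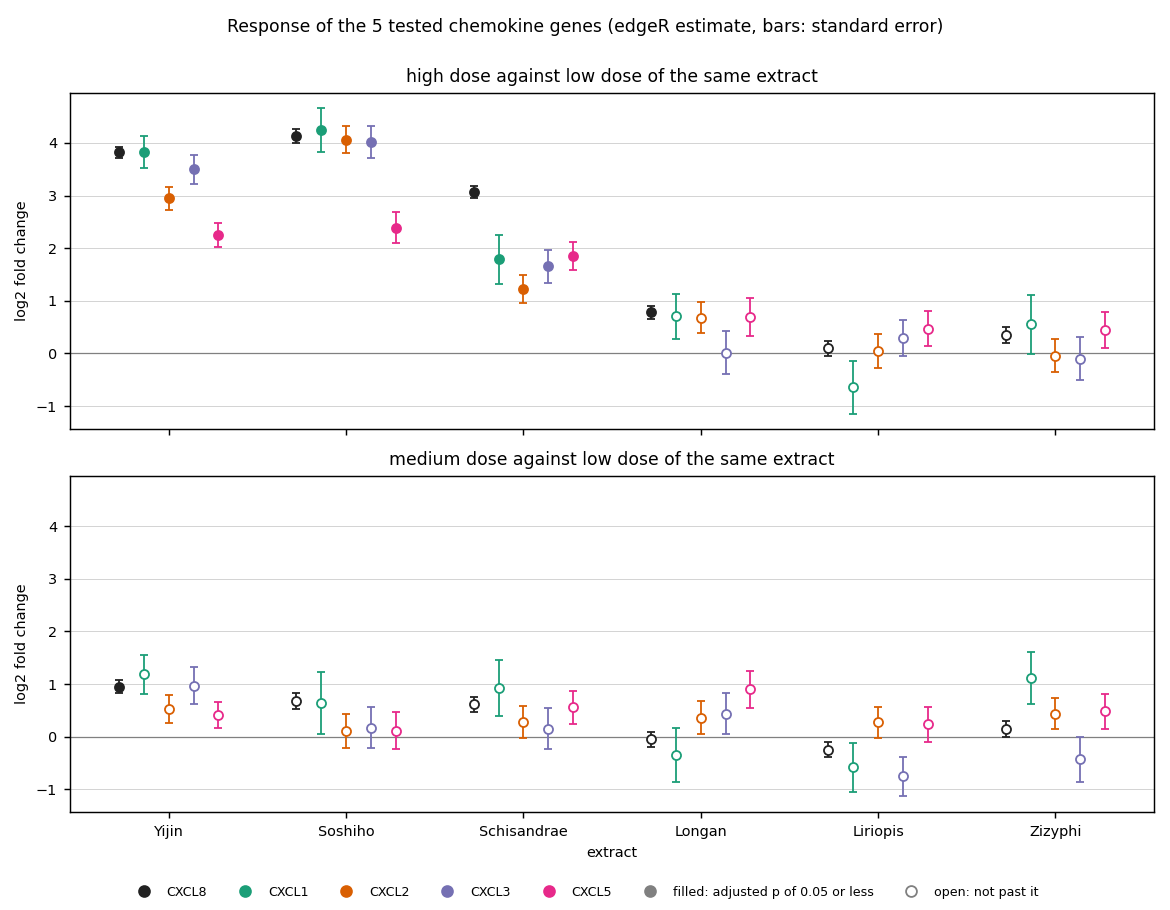
Log2 difference (vertical axis) of the high dose, upper panel, and the medium dose, lower panel, from the low dose of the same extract, with its standard error, for the 5 tested chemokines in the 6 replicated extracts (horizontal axis). Filled points passed the threshold: in the upper panel Yijin-tang, Soshiho-tang and Schisandrae Fructus lie between 1.22 and 4.24 for all 5 genes, and in the lower panel only CXCL8 with Yijin-tang is filled.

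Counted over the genes, 5 of 5 rose from the low to the high dose with Yijin-tang, where 3.61% of all genes tested rose. With Soshiho-tang 5 of 5 rose, against 9.92% of all genes, and with Schisandrae Fructus 5 of 5, against 22.3%. The median log2 difference of the 5 was 3.50 with Yijin-tang, 4.06 with Soshiho-tang and 1.79 with Schisandrae Fructus, and the median over all genes was 0.00 for each. With Longan Arillus 1 of 5, CXCL8, rose, against 0.342% of all genes. With Liriopis seu Ophiopogonis Tuber 0 of 5 passed, as did 0% of all genes, and with Zizyphi Semen 0 of 5, against 2.02%. At an unadjusted p under 0.05 the edgeR test gave 0 for the former and 1 for the latter. DESeq2 called 0 of 5 for the former and 0 of the 4 to which it gave an adjusted p for the latter. No member fell in any comparison with the low dose or the vehicle.

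The size of the high-minus-low response differed among the 6 extracts for each of the 5 genes in a joint test, which 38.2% of all genes passed. The edgeR adjusted p was 8.04e-24 for CXCL8, 2.1e-08 for CXCL1, 3.91e-12 for CXCL2, 1.61e-10 for CXCL3 and 8.83e-05 for CXCL5.

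At the medium dose, 5-fold below the high dose, only CXCL8 with Yijin-tang was called against the low dose. Its log2 difference was 0.95 ± 0.12 (edgeR adjusted p = 6.25e-06), and 0.0224% of all genes rose in that comparison. For all 5 genes each medium Yijin-tang library was above each low one, yet CXCL1, with 1.19 ± 0.37, was not past the threshold (adjusted p = 0.734), nor was the GRO sum with 0.85 ± 0.20 (adjusted p = 0.285). CXCL8 differed by 0.68 with Soshiho-tang (adjusted p = 0.253) and by 0.61 with Schisandrae Fructus (adjusted p = 0.154), where 0% and 0.0280% of all genes rose. Both of these were called when no filter on low counts was applied (adjusted p = 0.0065 and 0.00682 for CXCL8), with values of 0.68 and 0.62. For Longan Arillus, Zizyphi Semen and Liriopis seu Ophiopogonis Tuber the count was 0 of 5, and 0% of all genes. The count at an unadjusted p under 0.05 in edgeR was 1 of 5 for Soshiho-tang, Schisandrae Fructus, Longan Arillus and Zizyphi Semen and 0 for Liriopis seu Ophiopogonis Tuber. DESeq2 called 0 of 5 with Soshiho-tang, Longan Arillus and Zizyphi Semen and 0 of 4 with Schisandrae Fructus, and gave no adjusted p for any of the 5 with Liriopis seu Ophiopogonis Tuber.

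Against the vehicle, the same high doses had 5 of 5 genes higher. The share of all genes that rose was 8.02% for Yijin-tang, 14.2% for Soshiho-tang and 23.4% for Schisandrae Fructus. CXCL5 differed more from the vehicle than from the low dose, by 3.75 in log2 at high Yijin-tang, 3.47 at high Soshiho-tang and 2.43 at high Schisandrae Fructus. For CXCL1 at high Schisandrae Fructus the log2 difference was 1.33 (edgeR adjusted p = 0.0153), and the call was lost without vehicle replicate 3, where it was 1.11 (adjusted p = 0.0752). CXCL8 alone of the 5 was higher at high Longan Arillus, by 1.02 ± 0.14 (adjusted p = 5.09e-06), where 5.61% of all genes rose. There the GRO sum was also called (log2 0.68 ± 0.24, adjusted p = 0.0474), although none of its 3 genes was called alone. At the high doses of Liriopis seu Ophiopogonis Tuber and Zizyphi Semen 0 of 5 were called by edgeR, against 1.42% and 5.30% of all genes, and 3 and 0 had an unadjusted p under 0.05. DESeq2 called 0 of the 1 and 2 genes to which it gave an adjusted p.

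At medium Yijin-tang 4 of 5 genes were higher than in the vehicle, against 3.85% of all genes. CXCL8 differed by 1.48 in log2, CXCL1 by 1.92 ± 0.44 (edgeR adjusted p = 0.00409), CXCL2 by 1.08 ± 0.31 (adjusted p = 0.0172) and CXCL5 by 1.91 ± 0.32 (adjusted p = 0.000233). CXCL3, at 1.03, was just outside (adjusted p = 0.0543). The CXCL2 call was lost without vehicle replicate 2, vehicle replicate 3 or medium Yijin-tang replicate 3 (adjusted p = 0.0758, 0.0927 and 0.0516). DESeq2 gave an adjusted p for CXCL8 and CXCL2 alone and called both. Medium Soshiho-tang had CXCL8 higher by 1.12 ± 0.15 (adjusted p = 4.44e-06) and medium Schisandrae Fructus had it higher by 0.54 ± 0.15 (adjusted p = 0.0279), each 1 of 5 genes, against 1.27% and 2.05% of all genes. The call with Schisandrae Fructus was lost without vehicle replicate 1 or 2 or medium Schisandrae Fructus replicate 2 or 3, where the CXCL8 difference was 0.41 to 0.53 (adjusted p up to 0.181). At the medium doses of Longan Arillus, of Liriopis seu Ophiopogonis Tuber and of Zizyphi Semen 0 of 5 were called by edgeR, against 10.0%, 4.06% and 5.31% of all genes, and 1, 0 and 2 had an unadjusted p under 0.05. DESeq2 called 0 of the 5, 1 and 2 genes to which it gave an adjusted p.

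Low Yijin-tang had 2 of 5 genes higher than the vehicle, CXCL8 by 0.53 ± 0.15 (edgeR adjusted p = 0.0459) and CXCL5 by 1.49 ± 0.34 (adjusted p = 0.0141), where 1.00% of all genes rose. The CXCL8 call was lost without any 1 of the 3 vehicle or 3 low Yijin-tang libraries (adjusted p from 0.0601 to 0.242). CXCL5 was not called without vehicle replicate 2, vehicle replicate 3 or low Yijin-tang replicate 3 (adjusted p up to 0.128). At the low dose of the other 5 replicated extracts edgeR called 0 of 5 genes, and DESeq2 called 0 of the 4 to which it gave an adjusted p with Zizyphi Semen and did not call CXCL8, the 1 gene with an adjusted p, with the other 4 extracts. The share of all genes that rose was 0.532% for Soshiho-tang, 0.471% for Schisandrae Fructus, 1.63% for Longan Arillus, 2.02% for Liriopis seu Ophiopogonis Tuber and 6.61% for Zizyphi Semen. With Soshiho-tang 2 of 5 had an unadjusted p under 0.05 in edgeR, and with the other 4 extracts 0.

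Soshiho-tang and Yijin-tang share doses and library set and were compared at the high dose. CXCL2 was higher with Soshiho-tang by 1.26 ± 0.17 in log2 (edgeR adjusted p = 2.43e-07) and CXCL3 by 1.20 ± 0.21 (adjusted p = 1.91e-05). CXCL8 differed by 0.21 ± 0.09 (adjusted p = 0.0785), CXCL1 by −0.34 ± 0.25 (adjusted p = 0.383) and CXCL5 by −0.28 ± 0.21 (adjusted p = 0.403). So 2 of 5 genes were higher and 0 lower, where 11.3% of all genes were higher and 10.6% lower. The CXCL8 difference was called, making 3 of 5, when only these libraries or only their library set was fitted (adjusted p = 0.00734 and 0.00135). Taken relative to each decoction's low dose, the response of CXCL2 was larger with Soshiho-tang by 1.11 ± 0.37 (adjusted p = 0.0469), and 1 of 5 genes passed, where 5.10% of all genes passed as larger and 4.30% as smaller. The CXCL2 call was lost under library totals, DESeq2 and no filter (adjusted p = 0.0595, 0.0934 and 0.152). It was also lost without high or low Soshiho-tang replicate 2 or 3, high Yijin-tang replicate 2 or 3 or any 1 low Yijin-tang library (log2 0.99 to 1.21, adjusted p from 0.0543 to 0.152). The difference in response was 0.31 for CXCL8 (adjusted p = 0.346), 0.52 ± 0.47 for CXCL3 (adjusted p = 0.627), 0.41 for CXCL1 (adjusted p = 0.800) and 0.14 for CXCL5 (adjusted p = 0.906). Between Longan Arillus and Zizyphi Semen at 500 µg/mL, 1 of 5 genes, CXCL8, was higher with Longan Arillus, by 0.72 ± 0.13 (adjusted p = 0.000181), against 5.60% of all genes higher and 4.80% lower.

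**Figure D4:**
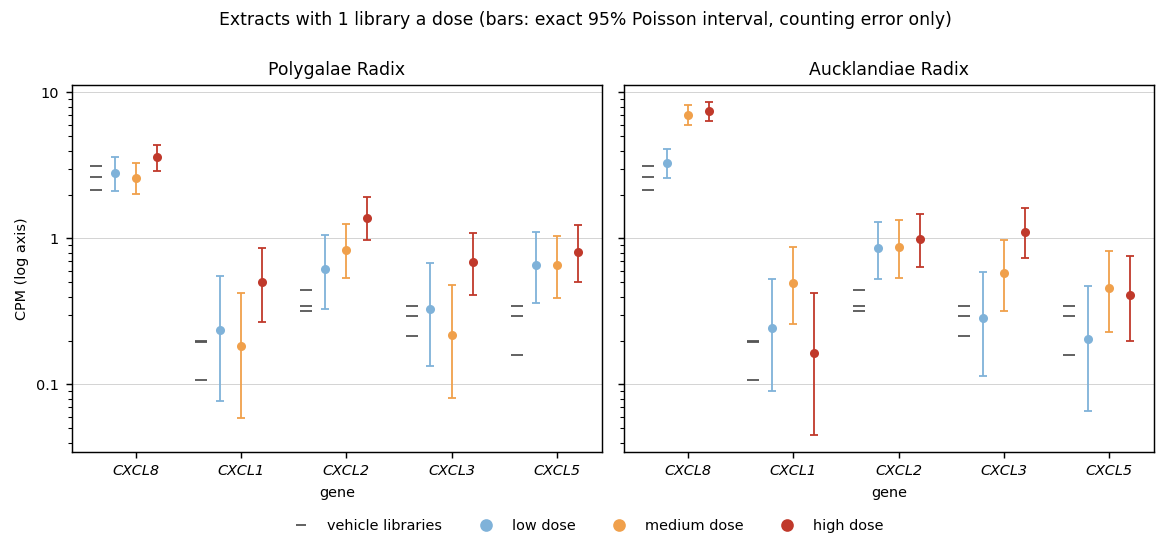
CPM of the 5 chemokines other than CXCL6 (vertical axis, log scale) at the low, medium and high dose of Polygalae Radix, left, and Aucklandiae Radix, right, 1 library each, with exact 95% Poisson intervals that cover counting error only and the 3 vehicle libraries as dashes. CXCL8 is at 3.29, 7.02 and 7.43 CPM in Aucklandiae Radix and at 2.79, 2.59 and 3.59 CPM in Polygalae Radix.

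Aucklandiae Radix and Polygalae Radix, with 1 library a dose, allow no test, and intervals cover counting error only. In Aucklandiae Radix CXCL8 had 81, 169 and 180 counts from the low to the high dose, or 3.29, 7.02 and 7.43 CPM. Medium was 2.13 times low (exact 95% interval 1.63 to 2.81) and high was 2.26 times low (1.73 to 2.97), so the medium and high libraries were alike in CXCL8. CXCL3 went from 0.285 to 1.11 CPM, 7 to 27 counts, a ratio of 3.91 (1.66 to 10.6), while CXCL1 had a ratio of 0.677 (0.140 to 2.85). In Polygalae Radix CXCL8 was at 2.79, 2.59 and 3.59 CPM, a ratio of high to low of 1.29 (0.918 to 1.81), and CXCL2 went from 13 to 36 counts, a ratio of 2.26 (1.17 to 4.64). Marker genes moved in both high-dose libraries. By medians over the 60 libraries, VIM (4824 CPM) makes up most of the astrocyte and glial sum. KRT18 (116 CPM) does so for the epithelial sum and TUBB3 (104 CPM) for the neuronal sum, so these sums mostly follow 1 gene each. In high Polygalae Radix summed astrocyte and glial markers were at 941 CPM against 5498 at its low dose, and fibroblast markers at 1179 CPM against 5344. Leukocyte markers were at 81.2 CPM against 213.6 and neuronal markers at 50.7 CPM against 162.2. Epithelial markers were at 33.7 CPM against 156.4 and endothelial markers at 22.8 CPM against 25.7. In high Aucklandiae Radix fibroblast markers were at 2006 CPM against 5404 at its low dose, leukocyte markers at 281.7 CPM against 235.5, neuronal markers at 290.7 CPM against 161.8 and endothelial markers at 14.4 CPM against 30.6. Their part in these values was not tested.

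The receptors of these chemokines were almost absent. CXCR1 and CXCR2 reached at most 1 count and were each at 0 in 57 of 60 libraries. ACKR1, a decoy receptor that takes up chemokines without signalling, was the only tested one of 3 and fell with Schisandrae Fructus by 1.31 in log2, from 1.62 ± 0.306 to 0.643 ± 0.0518 CPM (SD, n = 3; edgeR adjusted p = 0.000346). It was not called with the decoctions. Of 12 other CXC and CX3C chemokines 3 were tested. CXCL12, the ligand of CXCR4, moved opposite to the 5 tested genes, falling by 0.33 with Yijin-tang, 1.03 with Soshiho-tang and 1.32 with Schisandrae Fructus. CXCL16 fell by 0.23 with Schisandrae Fructus. The genes that lie between the members did not rise to a measurable level: PPBP reached at most 1 count, and PF4 and PF4V1 at most 2. Among 6 tested of 10 listed neighbours, EREG rose by 1.49 with Soshiho-tang and EPGN by 0.94 with Schisandrae Fructus. Both are growth factors of the EGF family, each is 16.7% of the 6 tested, and no neighbour fell with these extracts. Of all genes tested, 3.61% rose and 3.39% fell with Yijin-tang. The shares were 9.92% and 8.66% with Soshiho-tang, and 22.3% and 23.6% with Schisandrae Fructus.

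Of 11 CC chemokines, which draw monocytes and lymphocytes, 3 were tested. CCL2 rose with Yijin-tang from 13.9 ± 1.1 to 28.8 ± 1.8 CPM (SD, n = 3; log2 1.03, edgeR adjusted p = 3.6e-09), was 11.9 and 13.1 CPM on average at low and high Soshiho-tang, and fell with Schisandrae Fructus by 0.74. CCL5 rose with Yijin-tang by 1.08. CCL26 was called in none of these 3 comparisons. With Yijin-tang 2 of the 3 rose, against 3.61% of all genes. With Schisandrae Fructus 1 of the 3 fell, against 23.6% of all genes.

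**Figure D5:**
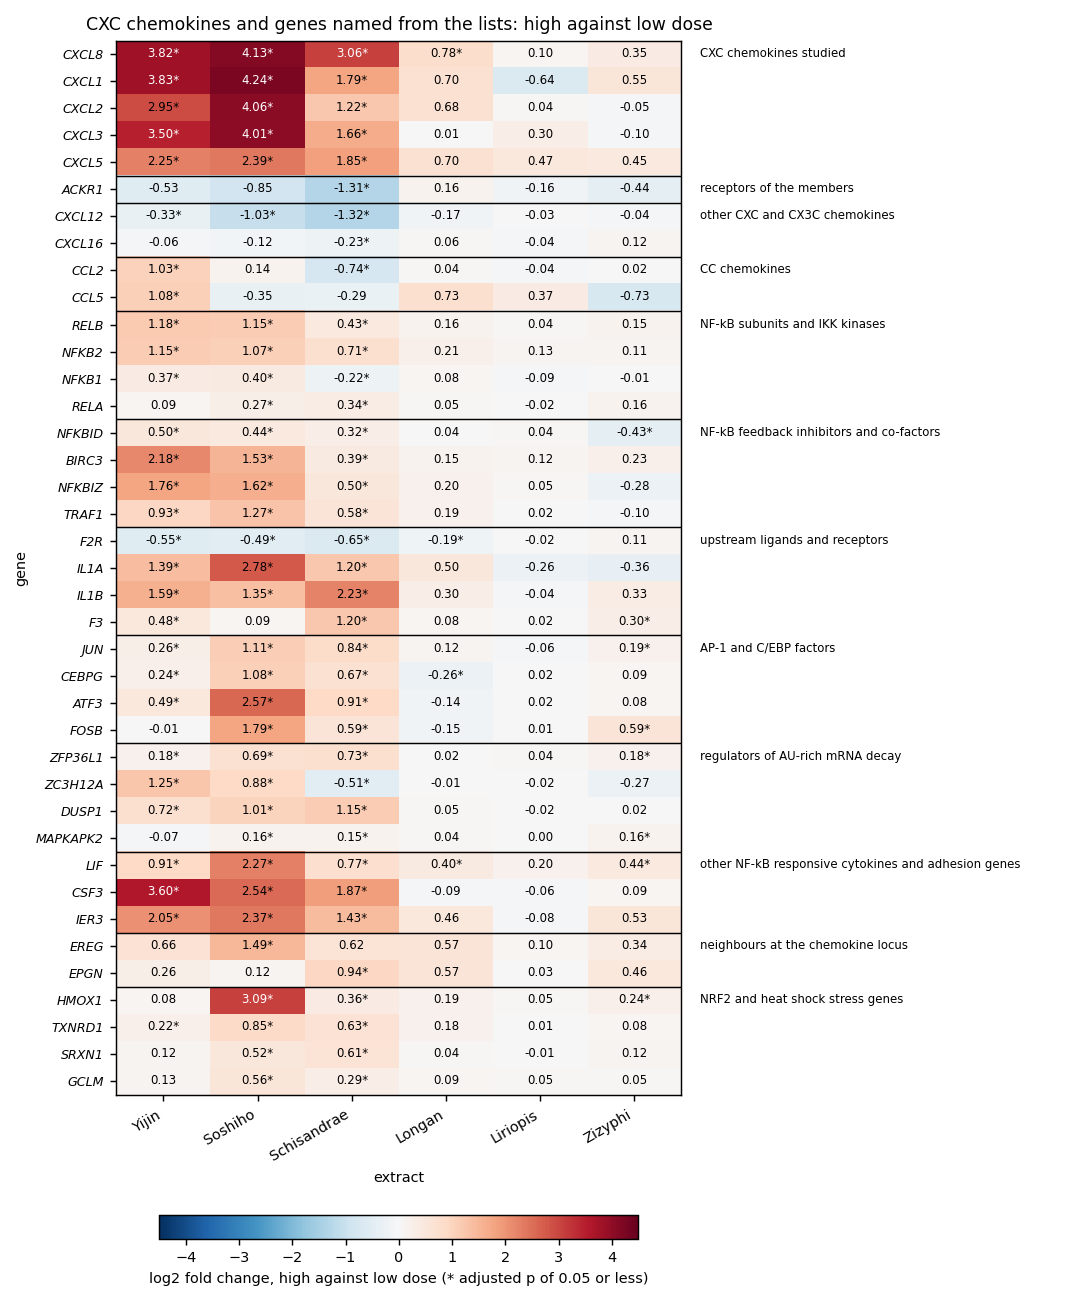
Log2 difference of high against low dose, printed in each cell and shown by colour from blue (lower) to red (higher), for the 5 tested chemokines and the genes named from each list (vertical axis) in the 6 replicated extracts (horizontal axis), with an asterisk where the adjusted p was 0.05 or less. CXCL8 runs from 3.82 and 4.13 with the decoctions to 0.10 with Liriopis seu Ophiopogonis Tuber, and F2R and CXCL12 are blue where the chemokines are red.

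Genes of pathways known to control these chemokines, other NF-kB responsive genes and stress genes were read from lists. For these lists the background over all genes is 3.61%, 9.92% and 22.3% that rose and 3.39%, 8.66% and 23.6% that fell with Yijin-tang, Soshiho-tang and Schisandrae Fructus in that order, with a median of 0.00. Of 8 NF-kB subunits and IKK kinases, 3 rose with Yijin-tang, 5 with Soshiho-tang and 3 with Schisandrae Fructus, and 1 fell with the last. NFKB2, which yields the p52 subunit, rose by 1.15, 1.07 and 0.71 in log2 with the 3 extracts in that order, and RELB, its partner, by 1.18, 1.15 and 0.43. NFKB1 rose by 0.37 and 0.40 with the decoctions and fell by 0.22 with Schisandrae Fructus. RELA rose by 0.27 with Soshiho-tang and 0.34 with Schisandrae Fructus. Of 12 tested NF-kB feedback inhibitors and co-factors, 8 rose with Yijin-tang, 10 with Soshiho-tang and 7 with Schisandrae Fructus, while 1 fell with Soshiho-tang and 3 with Schisandrae Fructus. BIRC3, a ubiquitin ligase of the tumour necrosis factor receptor complex, rose by 2.18, 1.53 and 0.39. NFKBIZ, a nuclear co-factor of NF-kB, rose by 1.76, 1.62 and 0.50, and TRAF1, an adaptor of tumour necrosis factor receptors, by 0.93, 1.27 and 0.58. List medians were 0.60, 0.53 and 0.22.

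Interleukin 1, which induces these chemokines, is among 28 tested upstream ligands and receptors, of which 6 (21.4%) rose with each of the 3 extracts and 3, 2 and 11 (10.7%, 7.14% and 39.3%) fell. With Schisandrae Fructus the share that rose is near the 22.3% of all genes. IL1B was at 4.00 ± 0.56, 3.48 ± 0.13 and 4.28 ± 0.35 CPM at the low doses of Yijin-tang, Soshiho-tang and Schisandrae Fructus (SD; n = 3, 2 and 3) and rose by 1.59, 1.35 and 2.23 in log2. IL1A rose by 1.39, 2.78 and 1.20. Of the 3 extracts IL1B thus rose most with Schisandrae Fructus and IL1A most with Soshiho-tang. Neither order was tested against that of CXCL8. F2R, the thrombin receptor, fell by 0.55, 0.49 and 0.65, and F3, tissue factor, rose by 0.48 with Yijin-tang and 1.20 with Schisandrae Fructus. The list medians were −0.01, 0.06 and −0.03, near that of all genes.

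Of 13 tested AP-1 and C/EBP genes, 5 rose with Yijin-tang, 8 with Soshiho-tang and 6 with Schisandrae Fructus, where 4 fell. ATF3, a stress-induced factor of the AP-1 family, rose by 0.49, 2.57 and 0.91, JUN by 0.26, 1.11 and 0.84, and CEBPG by 0.24, 1.08 and 0.67. FOSB rose by 1.79 with Soshiho-tang and 0.59 with Schisandrae Fructus. Of 14 regulators of AU-rich mRNA decay, 3, 7 and 4 (21.4%, 50% and 28.6%) rose and 5 (35.7%) fell with Schisandrae Fructus, where 22.3% of all genes rose and 23.6% fell. ZC3H12A, whose product Regnase-1 degrades cytokine messages, rose by 1.25 and 0.88 with the decoctions and fell by 0.51 with Schisandrae Fructus. ZFP36L1, which binds AU-rich elements, rose by 0.18, 0.69 and 0.73, and DUSP1, a phosphatase of stress kinases, by 0.72, 1.01 and 1.15. Of 8 NRF2 and heat shock stress genes 1, 5 and 6 rose, and 1 fell with Yijin-tang and 1 with Schisandrae Fructus. HMOX1, the enzyme that degrades haem, rose by 3.09 with Soshiho-tang from 53.9 to 459 CPM on average and by 0.36 with Schisandrae Fructus.

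Of 19 tested other NF-kB responsive cytokines and adhesion genes, 15 rose with Yijin-tang, 14 with Soshiho-tang and 10 with Schisandrae Fructus, where 2 fell. CSF3, the growth factor of neutrophils, rose by 3.60 with Yijin-tang, 2.54 with Soshiho-tang and 1.87 with Schisandrae Fructus. Its means were 0.474 ± 0.051 CPM at low and 5.94 ± 1.2 CPM at high Yijin-tang (SD, n = 3). IER3, an early response gene, rose by 2.05, 2.37 and 1.43, and LIF, a cytokine of the IL6 family, by 0.91, 2.27 and 0.77. The list's medians were 0.91, 1.03 and 0.29, each below the corresponding median of the 5 chemokines.

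The genes closest to each chemokine across the 60 libraries were named by Pearson's r of log2 CPM, a description over libraries that share sets, controls and 3 strongly responding groups. For CXCL8 they were NFKB2 (r = 0.934), RELB (0.911), IER3 (0.910), CXCL3 (0.898) and BIRC3 (0.884). For CXCL1 they were CXCL8 (0.875), IL6 (0.865), CXCL2 (0.865), TNFAIP3 (0.863) and ICAM1 (0.854). For CXCL2 they were RELB (0.880), CXCL8 (0.870), IRAK2 (0.870), CXCL3 (0.869) and CXCL1 (0.865), and for CXCL3 they were CXCL8 (0.898), RELB (0.893), CXCL2 (0.869), IER3 (0.853) and IRAK2 (0.853). CXCL5 was closest to CXCL8 (0.870), ICAM1 (0.819), RELB (0.814), CXCL1 (0.805) and CXCL2 (0.801). Between pairs of the 5 chemokines r ran from 0.789 to 0.898. Over the 25 group means 19 of the 25 named neighbours stayed among the first 5.

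IL6, TNFAIP3 and ICAM1, named for their likeness to CXCL1, were followed in the same 3 comparisons. That likeness was read from the same libraries, so the choice favours genes that rose with the decoctions. Their values and p-values are thus a description. IL6, an acute-phase cytokine, rose by 2.35 with Yijin-tang (edgeR adjusted p = 9.42e-19) and 2.53 with Soshiho-tang (adjusted p = 1.96e-16), but differed by 0.09 with Schisandrae Fructus (adjusted p = 0.632). TNFAIP3, which encodes the NF-kB inhibitor A20, rose by 1.62 and 1.38 with the decoctions and differed by 0.06 with Schisandrae Fructus (adjusted p = 0.617). ICAM1, an adhesion molecule that binds leukocytes, rose by 1.78 and 1.51 and by 0.29 with Schisandrae Fructus (adjusted p = 4.68e-05). All 5 chemokines rose with Schisandrae Fructus by 1.22 or more, and the difference between these responses was not tested.

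Leukocytes are another source of these chemokines, and their markers were read beside the results. Of 10 leukocyte markers 7 had a median below 1 CPM, and FCGR3B was at 0 in 59 and CD3E and AIF1 in 57 of 60 libraries. PTPRC, the CD45 gene, had a median of 8.30 CPM and CSF1R of 3.14 CPM, and both were above 0 in every library. Most of the sum came from CD68, a lysosomal gene with a median of 206 CPM. The summed level was 217 to 229 CPM at low and 240 to 259 CPM at high Yijin-tang, 207 to 212 and 225 to 242 with Soshiho-tang, and 214 to 225 and 259 to 268 with Schisandrae Fructus. Summed fibroblast markers were 5471 to 5526 CPM at low and 2441 to 2565 CPM at high Soshiho-tang. They were 5628 to 5963 CPM at low and 5142 to 5250 CPM at high Yijin-tang. Summed astrocyte and glial markers were 4805 to 4820 CPM at low and 4453 to 4548 CPM at high Yijin-tang. With Soshiho-tang they were higher at the high dose, 5456 to 5645 against 5185 to 5260 CPM. For Schisandrae Fructus the low and high doses overlapped in both sums. Summed epithelial markers were lower at the high than at the low dose of all 3 extracts, 98.3 to 112.3 against 128.7 to 136.8 CPM with Yijin-tang, 76.9 to 84.4 against 143.6 to 143.9 with Soshiho-tang and 76.8 to 96.6 against 121.1 to 135.3 with Schisandrae Fructus. Neuronal markers were also lower, at 124.8 to 137.5 against 153.3 to 163.5, 111.2 to 113.0 against 153.4 to 155.0 and 93.7 to 103.0 against 158.3 to 160.3 CPM. Summed endothelial markers went the other way with Soshiho-tang, at 35.2 to 38.1 CPM at the high against 31.3 to 31.9 at the low dose. With Schisandrae Fructus they were also higher, at 38.1 to 41.9 against 32.8 to 33.9 CPM. With Yijin-tang the endothelial sums overlapped, at 28.4 to 34.0 against 28.9 to 31.8 CPM. By medians, most of the astrocyte and glial sum came from VIM, of the epithelial sum from KRT18 and of the neuronal sum from TUBB3. The part of the markers in the results was not tested.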

How the data were processed

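RNA from 60 libraries (MGIEasy directional kit, paired-end, per the labels' protocols) was measured. The authors deposited 1 table of expected counts per gene. Per the submitters' processing notes the tools were FastQC 0.11.9, Trim Galore 0.6.5, STAR 2.7.3a and RSEM 1.3.3 with hg38. Neither annotation release nor strand setting is given in the sources used here. RSEM divides reads shared by similar genes, so 10.9% of values were not whole (tolerance 1e-06), and counts were rounded.

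Levels are rounded counts-per-million (CPM) of the library's total, with SD between libraries. A single edgeR 4.0.16 model (R 4.3.3, limma 3.58.1) took the 54 libraries of 19 replicated groups, with TMM scaling, filterByExpr and 1 coefficient per group, giving 35 residual degrees of freedom. Log2 differences carry a standard error computed as the difference divided by the square root of F. Quasi-likelihood p-values were adjusted by Benjamini-Hochberg over 17851 genes and called at 0.05 or less. The script was tested on simulated data. Ratios of single libraries have exact Poisson intervals at 95%. Of 51 within-group library pairs none was a copy. Alternatives were DESeq2 1.42.0, other scalings, no filter, unrounded counts, fewer libraries, a replicate block and leaving out each library. From a list at most 4 genes are named, those called in the most high-against-low comparisons, and the 5 genes most like each chemokine by r; 1 gene that the list rule names is not reported here. The chemokines and lists were chosen with earlier results of these data known. Sequences are RefSeq's.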

Additional observations from a re-analysis of the deposited data

Results flagged for a closer look

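The high-minus-low response differed among the 6 replicated extracts for 5 chemokines in the joint edgeR test over 54 libraries (adjusted p = 8.04e-24 for CXCL8, 2.1e-08 for CXCL1, 3.91e-12 for CXCL2, 1.61e-10 for CXCL3 and 8.83e-05 for CXCL5). Of all genes tested, 38.2% passed the same test.

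CXCL2 responded more to Soshiho-tang than to Yijin-tang, with a difference of the high-minus-low responses of 1.11 on the log2 scale (edgeR adjusted p = 0.0469), higher at the high dose in 2 of 2 Soshiho-tang libraries than in each of 3 Yijin-tang libraries. The call was lost under library totals, DESeq2 and no filter on low counts (CXCL2 adjusted p = 0.0595, 0.0934 and 0.152) and on leaving out any 1 of 9 of the 10 libraries (up to 0.152).

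CXCL6, which was outside the tests, had 17 counts in all in the 3 high Yijin-tang libraries, against 2 in the 3 vehicle libraries. No group had from 4 to 10 libraries, so the rule for flagging a single library far from its group applied to none.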

How the results depend on the processing

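Of 45 called values of single chemokines, 38 kept their call and direction in every alternative that gave an adjusted p. DESeq2 gave none for 3 of the 45, CXCL1 and CXCL5 at medium and CXCL5 at low Yijin-tang against vehicle, and these are not counted as lost. Over 613 alternatives with an adjusted p 582 kept the call, 31 lost it and 0 reversed. The number of genes called changed by 1.5 times or more as follows. Longan Arillus high against low went from 1 to 0 when only the libraries compared or only the library sets compared were fitted. Soshiho-tang medium against low went from 0 to 1 with no filter on low counts and with only the library sets compared, and Schisandrae Fructus medium against low from 0 to 1 with no filter. Against the vehicle, with only the library sets compared, medium Soshiho-tang went from 1 to 2 and low Soshiho-tang from 0 to 1. DESeq2 called 2 genes in place of 4 for medium and 1 in place of 2 for low Yijin-tang, since it gave the others no adjusted p. The count for high Soshiho-tang against high Yijin-tang went from 2 to 3 with only the libraries or only the library sets compared. The larger response to Soshiho-tang than to Yijin-tang went from 1 to 0 under library totals, DESeq2 and no filter. Leaving out 1 library at a time gave 0 to 1 genes for that comparison, 0 to 1 for medium Schisandrae Fructus against vehicle and 0 to 2 for low Yijin-tang against vehicle. CXCL3 at medium Yijin-tang against vehicle passed with library totals (adjusted p = 0.0470) and with only the library sets compared (0.0287). Where the number of genes or libraries fitted did not change, the cause was not tested. Another scaling moved the median of all genes by at most 0.04 in log2. For CXCL1 and CXCL6 few counts limit the precision.

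The labels do not say that a replicate number marks a shared culture or day, and the correlations did not reach 0.1 in every pair, so the libraries were not treated as paired. Over 360 pairs of same-numbered libraries the deviations from the group means had a median correlation of 0.00838, with 22 above 0.1, and 30 of 48 libraries, more than 1 in 3, were closest to their own number, a hint from the data and not from the design. With the replicate block no count of called chemokines changed, and CXCL8 at high against low Yijin-tang was 3.82 with and without the block.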
